A study of Homo sapiens with 9 samples.

Results

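The genes that encode the subunits of the human proteasome were followed through 9 RNA sequencing libraries of liver cancer cell lines exposed to THZ531. Members were the protein-coding rows whose symbol was PSMA, PSMB, PSMC or PSMD followed by a number, which gave 39 of the 32990 rows of the count table and 38 distinct symbols. There were 8 PSMA rows, 11 PSMB rows, 6 PSMC rows and 14 PSMD rows. A filter on low counts kept 15479 genes for testing, 37 of them members. Not tested were PSMB11, a beta subunit of the thymus with at most 2 counts in any library, and a second PSMA2 row, an annotated readthrough with at most 4 counts. PSMA8, the testis-specific alpha subunit, was not analysed here.

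The treated cells received THZ531 at 250 nM or 500 nM and the control cells received none, in Hep3B, Huh7 and SNU449 cells, all established human liver cancer lines. THZ531 covalently blocks CDK12 and CDK13, kinases that phosphorylate RNA polymerase II during elongation. Each line contributed 1 library per dose, so a dose had n = 3 lines and there was no replicate within a line. The labels disagree on the exposure: the characteristics state 48 h throughout, while the treatment protocol states 24 h except for SNU449. Separate cultures are not mentioned for the libraries, so p-values reflect no more than the spread among these 9, which may be technical.

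The proteasome is the protease complex that degrades proteins tagged with ubiquitin. Its core particle is a stack of rings in which the outer rings are made of alpha subunits (the PSMA genes) and the inner rings of beta subunits (the PSMB genes), of which PSMB5, PSMB6 and PSMB7 carry the proteolytic sites. The regulatory particle caps the core: its base holds a ring of ATPases (the PSMC genes) that unfold substrates together with scaffold and ubiquitin-receptor subunits, and its lid (most PSMD genes) removes the ubiquitin chain. In cells with impaired proteasomes the transcription factor NFE2L1, also called TCF11 or NRF1, raises the transcription of subunit genes as a group, through antioxidant response elements in their promoters.

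Total counts ran from 5701981 to 20657610 per library, and the shallowest library was Huh7 at 500 nM. Mitochondrial genes took 3.85% to 13.1% of the counts, and the 4 treated Hep3B and Huh7 libraries had the highest shares. Markers of hepatocytes summed to 46861 and 89352 CPM (counts scaled to a common library size) in Hep3B and Huh7 at 500 nM, against 27064 and 21130 CPM in their controls, but only to between 7.80 and 9.85 CPM in SNU449 libraries, where TTR was at 0 in 2 of 3. Markers of mesenchymal cells summed to 5691 and 20173 CPM in Hep3B and Huh7 at 500 nM, against 2537 and 7745 CPM in their controls. The part of these marker changes in the results below was not tested. Values called CPM were scaled with TMM factors, which assume that most genes do not change. Differences are log2 ratios of treated over control, computed for single libraries with a prior count of 2. Because the samples were bulk RNA, fewer cells and less RNA per cell cannot be told apart.

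In treated Hep3B and Huh7 libraries subunit genes lay on both sides of control. Only increases passed the main within-line test, with TMM scaling, all libraries and both treated libraries of a line as replicates. With dose as a slope, PSMD5, PSMD12 and PSMD14 were also called in Huh7, where both treated libraries were below control. In SNU449 the ratios of all 37 tested members ran from -0.29 to 0.50 over both doses. PSMD2, PSMB6, PSMA1 and PSMB4 were at least 2-fold higher than control in all 4 treated Hep3B and Huh7 libraries, which is 10.8% of the tested members and compares with 8.94% of all tested genes. Over these 4 libraries 19 of 37 members were higher in each and 5 were lower in each (PSMD1, PSMD5, PSMD6, PSMD12 and PSMD14), while 13 were mixed. Among all tested genes 26.7% were higher in each and 30.2% lower in each, against 51.4% and 13.5% of the members. In SNU449 no member reached a 2-fold difference at either dose, where 0.756% of all genes were that much higher and 0.73% lower at 250 nM.

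**Figure D1:**
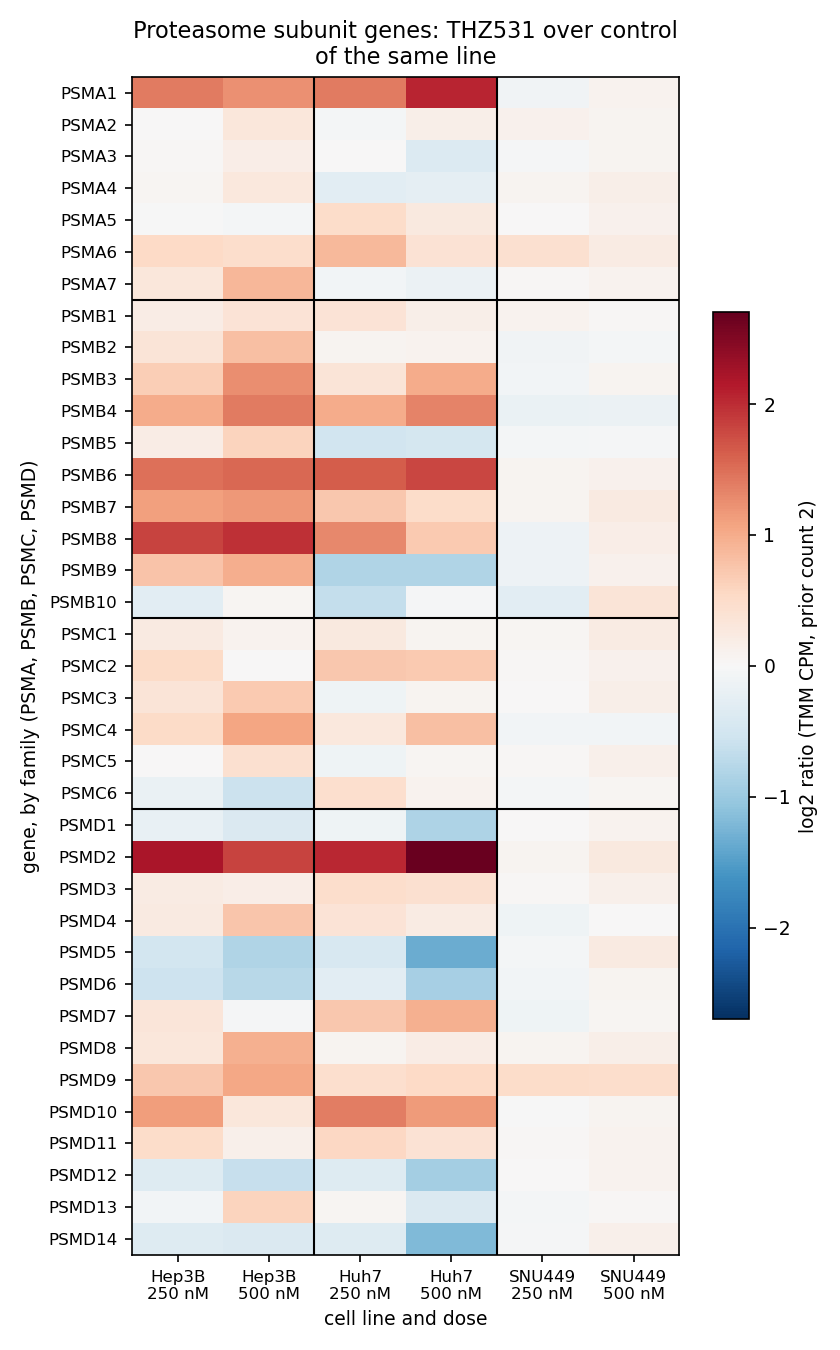
Log2 ratio of treated over control (TMM-scaled CPM, prior count 2) for the 37 tested proteasome subunit genes in the 6 treated libraries, with genes down the page by family and cell lines and doses across it. PSMD2, PSMB6, PSMA1 and PSMB4 are red in the 4 Hep3B and Huh7 columns, PSMD5, PSMD6, PSMD12 and PSMD14 are blue there, and the SNU449 columns are pale throughout.

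With the line as the replicate of a dose, no subunit gene passed the test. At 500 nM against control, edgeR's quasi-likelihood test with Benjamini-Hochberg adjustment over all tested genes called 0 of 37 members, against 4.17% of all genes; 8 members, all higher, had an unadjusted p under 0.05, which is 21.6% of members and compares with 28.9% of all genes. DESeq2 called PSMD2, PSMB6 and PSMA1 in this comparison and limma-voom called PSMD2. Shares of all genes called by DESeq2 and limma-voom are not given here, so their counts are not a result about the members. At 250 nM against control edgeR called 0 members, against 1.21% of all genes, and DESeq2 and limma-voom called 0. There 5 members had an unadjusted p under 0.05, which is 13.5%, beside 17.6% of all genes. For both doses together against control edgeR called 0 members, against 5.17% of all genes, while DESeq2 and limma-voom called 3 each. In that comparison 9 members had an unadjusted p under 0.05, which is 24.3%, beside 29.2% of all genes. Between 500 and 250 nM edgeR called 0 members and 0% of all genes, with 0 members at an unadjusted p under 0.05, beside 2.19% of all genes. The median log2 fold change of the members at 500 nM was 0.28, beside -0.05 for all tested genes.

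Tested within a line, with both treated libraries set against the single control, 6 members were called higher in Hep3B and 5 in Huh7, and none lower. In this fit the 250 and 500 nM libraries of a line count as replicates, so a real dose difference counts as spread. A change that depends on dose is therefore harder to call. The 6 of 37 in Hep3B are 16.2%, against 9.82% of all genes called higher there, and the 5 of 37 in Huh7 are 13.5%, against 13.3%. PSMD2, PSMB6, PSMA1 and PSMB4 were called in both lines, and the share of all genes called in both is not given here. Over all tested genes the ratios of Hep3B and Huh7 correlated with Pearson's r = 0.75 at 250 nM and 0.77 at 500 nM. None of the 37 was called lower in Hep3B or Huh7 by this test, where 6.72% and 6.04% of all genes were. No member had an unadjusted p under 0.05 in that direction. DESeq2 and limma-voom called 0 lower too, and their shares of all genes are not given. In SNU449 edgeR called 0 members and 0% of all genes, with 0 members at an unadjusted p under 0.05, beside 0.439% of all genes. Under total-count scaling edgeR called 2 members in Hep3B, both higher, where 6.99% of all genes were called higher and 15.5% lower. On that scale it called 5 in Huh7, of which PSMD2 was higher and PSMB5, PSMD5, PSMD12 and PSMD14 were lower, where 7.83% of all genes were called higher and 23% lower. These within-line tests rest on 1 control library per line. For the refits below with a library left out, shares of all genes called are not given. Their counts therefore describe the fit and are not a result about the members. Without either treated Hep3B library edgeR called 0 members in Hep3B, and without the Huh7 library at 250 nM it called 11 in Huh7, 6 higher and 5 lower. Without either treated SNU449 library it called 3 in Hep3B (PSMA1, PSMB4 and PSMB7 were lost) and 3 in Huh7 (PSMB4 and PSMD10 were lost), and without either treated Huh7 library it called 9 in Hep3B.

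How large the response looks depends on the scale. Under scaling by total counts the median of all genes moved to -0.58 in Hep3B and -0.95 in Huh7 at 500 nM, and the median member stood at -0.16 and -0.78 in place of 0.43 and 0.15. The members thus stood above the typical gene on both scales, but their median was above control only after TMM scaling. PSMD2, PSMB6, PSMA1 and PSMB4 were above control on the total-count scale as well, with ratios of 0.59 to 1.78 in Hep3B and 0.40 to 1.73 in Huh7. As a share of all counts the 39 genes took 0.527%, 0.682% and 0.615% in Hep3B at 0, 250 and 500 nM, then 0.477%, 0.528% and 0.436% in Huh7 and 0.485%, 0.490% and 0.514% in SNU449. Summed TPM, which divides counts by exonic length, was lower in treated Hep3B and Huh7 than in their controls, with 6131, 5796 and 5351 in Hep3B and 5943, 5198 and 3582 in Huh7, while SNU449 had 5909, 5978 and 6260.

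PSMD2 encodes a large scaffold subunit of the base, where ubiquitin shuttle proteins dock, and lies at chr3:184298709-184309054 (GRCh38, plus strand). It had 587, 2689 and 2081 CPM at 0, 250 and 500 nM in Hep3B, 367, 1506 and 2345 CPM in Huh7, and 468, 491 and 563 CPM in SNU449. The 4 treated Hep3B and Huh7 libraries lay far above every other library, and the treated SNU449 libraries lay within the range of the controls. The rise is visible in the unscaled counts: 31820 and 18960 in the treated Hep3B libraries against 14366 in the deeper control. The log2 fold change was 2.02 ± 0.43 in Hep3B (SE, edgeR adjusted p = 0.0110) and 2.39 ± 0.44 in Huh7 (adjusted p = 0.00535). Across lines at 500 nM it was 1.51 ± 0.48 (adjusted p = 0.0784).

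The other non-ATPase subunits of the base did not share this change. PSMD1, the scaffold paired with PSMD2, had 216, 189 and 165 CPM in Hep3B at 0, 250 and 500 nM, 224, 207 and 126 CPM in Huh7, and 206, 208 and 220 CPM in SNU449. PSMD4, a ubiquitin receptor, had ratios of 0.25 and 0.74 in Hep3B, 0.37 and 0.22 in Huh7, and -0.12 and 0.01 in SNU449 at 250 and 500 nM. At 500 nM the 3 base scaffold and receptor genes thus ran from -0.38 to 1.83 in Hep3B and from -0.83 to 2.67 in Huh7. Neither PSMD1 nor PSMD4 passed the test in any line.

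Among the core beta subunits that make up the standard particle, the structural subunit PSMB4 and the catalytic subunit PSMB6 moved most. PSMB6, which cuts after acidic residues, lies at chr17:4796144-4798503 and had 124, 346 and 363 CPM in Hep3B at 0, 250 and 500 nM, 155, 483 and 544 CPM in Huh7, and 89.1, 93.2 and 95.9 CPM in SNU449. All 4 treated Hep3B and Huh7 libraries exceeded every control. The log2 fold change was 1.51 ± 0.34 in Hep3B (edgeR adjusted p = 0.0136) and 1.73 ± 0.35 in Huh7 (adjusted p = 0.00736).

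PSMB4 lies at chr1:151399534-151401944 and had 262, 529 and 695 CPM in Hep3B, 137, 275 and 348 CPM in Huh7, and 164, 145 and 147 CPM in SNU449, at 0, 250 and 500 nM. Its level was higher at the higher dose in both Hep3B and Huh7, and the treated SNU449 libraries were below their control. The log2 fold change was 1.22 ± 0.36 in Hep3B (edgeR adjusted p = 0.0392) and 1.18 ± 0.36 in Huh7 (adjusted p = 0.0401). The Huh7 call was lost without the Huh7 library at 500 nM, without either treated Hep3B library and without either treated SNU449 library.

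The catalytic subunits did not move together. PSMB7, which cuts after basic residues, had 94.8, 206 and 213 CPM in Hep3B at 0, 250 and 500 nM, 134, 221 and 188 CPM in Huh7, and 107, 112 and 126 CPM in SNU449. It rose in Hep3B by 1.14 ± 0.33 (edgeR adjusted p = 0.0366), and its fold change in Huh7 was 0.61 ± 0.32 (adjusted p = 0.203). PSMB5, which cuts after hydrophobic residues and is the main target of proteasome drugs such as bortezomib, had 121, 140 and 185 CPM in Hep3B, against 134, 92.6 and 96.6 CPM in Huh7 and 109, 104 and 107 CPM in SNU449. The treated values of PSMB5 were thus below control in Huh7 and above it in Hep3B, and the difference between the responses was -0.92 ± 0.45 for Huh7 minus Hep3B (adjusted p = 0.791).

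The remaining standard beta subunits, PSMB1, PSMB2 and PSMB3, had ratios of 0.36, 0.81 and 1.25 in Hep3B at 500 nM and 0.15, 0.09 and 1.0 in Huh7, and none was called. PSMB3 had 110, 174 and 263 CPM in Hep3B at 0, 250 and 500 nM, 86.8, 111 and 174 CPM in Huh7, and 116, 109 and 122 CPM in SNU449. The 7 standard beta subunits had a median ratio at 500 nM of 1.17 (Hep3B), 0.49 (Huh7) and 0.03 (SNU449).

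The inducible beta subunits, which replace the standard catalytic ones in the immunoproteasome and are known for interferon-driven expression, were scarce. PSMB8, the counterpart of PSMB5 at chr6:32840717-32844703, had 22, 42 and 36 counts in Hep3B at 0, 250 and 500 nM, 8, 10 and 3 counts in Huh7, and 135, 113 and 167 counts in SNU449. Its log2 fold change in Hep3B was 2.05 ± 0.48 (edgeR adjusted p = 0.0165). The ratio of the 500 nM library to the control was 4.40 in Hep3B (95% Clopper-Pearson interval 2.52 to 7.85) and 1.83 in Huh7 (0.31 to 7.62), and such intervals cover counting error only. PSMB9 had 1, 2 and 2 counts in Hep3B, 2, 0 and 0 in Huh7, and 25, 21 and 30 in SNU449. PSMB10 had 26, 10 and 10 counts in Hep3B, 20, 5 and 4 in Huh7, and 19, 14 and 27 in SNU449. Neither PSMB9 nor PSMB10 showed a difference from control detectable at this depth.

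Per exonic length the standard catalytic subunits outweighed the inducible ones in every library. PSMB5 over PSMB8 stood at 230, 66.9 and 79.4 in TPM at 0, 250 and 500 nM in Hep3B, at 513, 120 and 203 in Huh7, and at 22.7, 24.1 and 19.6 in SNU449. The ratio was lowest in SNU449, which had the most PSMB8. PSMB7 over PSMB10 stood between 92.6 and 252 in Hep3B, between 125 and 350 in Huh7, and between 87.6 and 128 in SNU449.

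**Figure D2:**
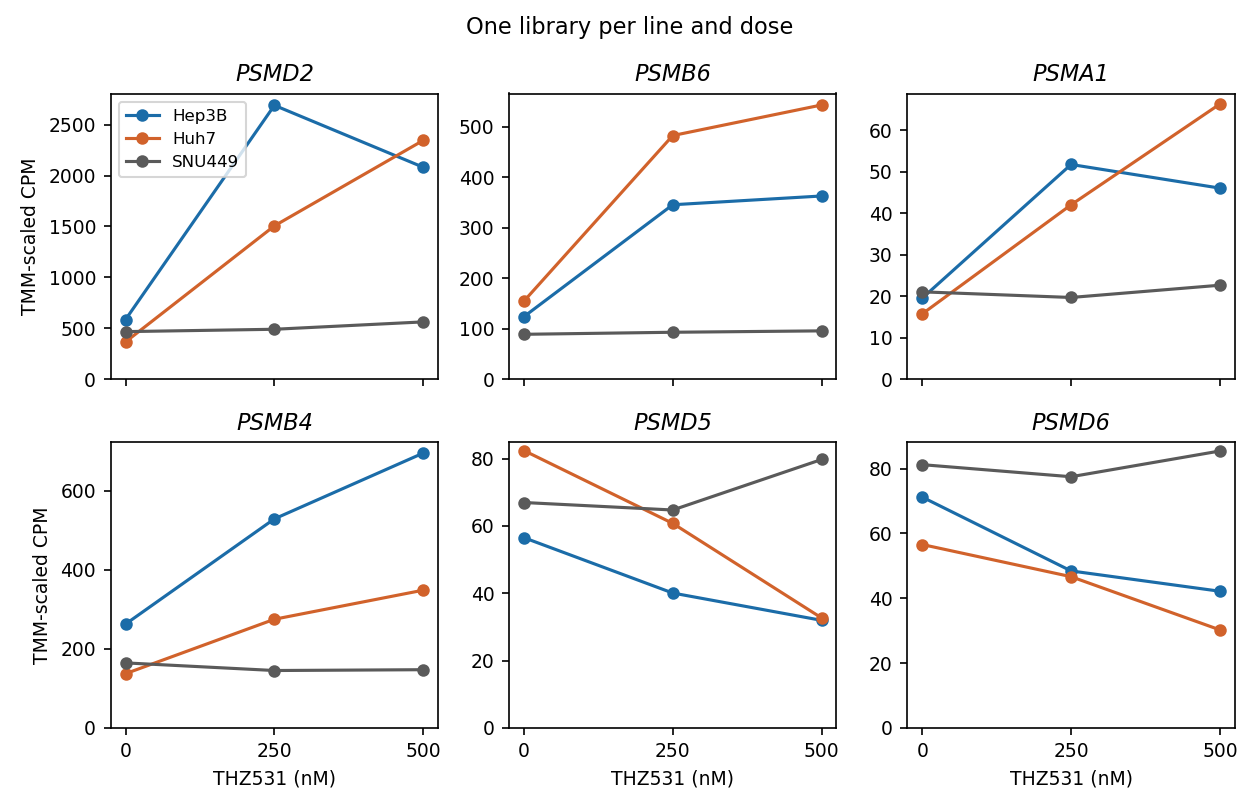
TMM-scaled CPM of 6 subunit genes at 0, 250 and 500 nM THZ531 in Hep3B (blue), Huh7 (orange) and SNU449 (grey), each point being a single library with no error bar. PSMD2, PSMB6, PSMA1 and PSMB4 lie above control in both treated Hep3B and Huh7 libraries, PSMD5 and PSMD6 lie below it, and the SNU449 lines are nearly flat.

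In the alpha ring, which gates entry to the core, PSMA1 stood apart. PSMA1, at chr11:14504874-14643635 on the minus strand, had 19.6, 51.8 and 46.1 CPM in Hep3B at 0, 250 and 500 nM, 15.8, 42.1 and 66.4 CPM in Huh7, and 21.1, 19.7 and 22.7 CPM in SNU449. The 4 treated Hep3B and Huh7 values exceeded all 3 controls and both treated SNU449 values. The log2 fold change was 1.32 ± 0.36 in Hep3B (edgeR adjusted p = 0.0282) and 1.77 ± 0.37 in Huh7 (adjusted p = 0.00924). In GENCODE v29 another gene on the same strand covers 24.7% of the exonic bases of PSMA1, so counts in the shared part are uncertain. The same limit holds for PSMB10 (34.8%), PSMD9 (19.9%), PSMA2 (14.6%) and PSMA6 (14.1%).

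The 6 other tested alpha genes had no call in any line. PSMA6 had ratios of 0.54 and 0.47 in Hep3B at 250 and 500 nM, 0.88 and 0.39 in Huh7, and 0.44 and 0.21 in SNU449, from 16 to 117 counts per library. PSMA7 was above control in Hep3B, with 0.31 and 0.89, and below it in Huh7, with -0.06 and -0.16. PSMA3 had 77.7, 79.9 and 87.8 CPM in Hep3B at 0, 250 and 500 nM, 94.8, 94.99 and 72.9 CPM in Huh7, and 81.5, 79.6 and 85.8 CPM in SNU449. PSMA4 had 111, 114 and 135 CPM in Hep3B, 167, 137 and 142 CPM in Huh7, and 100.5, 106 and 112 CPM in SNU449. At 500 nM both were above control in Hep3B and below it in Huh7. PSMA2 and PSMA5 lay between -0.06 and 0.49 in the Hep3B and Huh7 libraries. The 7 alpha genes had a median at 500 nM of 0.30 (Hep3B), 0.15 (Huh7) and 0.10 (SNU449).

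The 6 ATPases of the base, which thread substrates into the core, had no call in any line. PSMC4 had the highest fold change of the family across lines at 500 nM, 0.61 ± 0.28 (edgeR adjusted p = 0.169), with 151, 217 and 316 CPM at 0, 250 and 500 nM in Hep3B, 121, 148 and 213 CPM in Huh7, and 146, 140 and 140 CPM in SNU449. Its level was higher at the higher dose in Hep3B and Huh7 alone. PSMC3 had 154, 195 and 251 CPM in Hep3B, 109, 99.95 and 115 CPM in Huh7, and 103, 105 and 115 CPM in SNU449. PSMC6 was the lowest of the family, with 91.0, 80.9 and 60.7 CPM in Hep3B, 78.3, 107 and 83.4 CPM in Huh7, and 79.6, 76.8 and 82.6 CPM in SNU449. PSMC1 had 52.0, 61.2 and 55.5 CPM in Hep3B, 49.9, 59.6 and 52.9 CPM in Huh7, and 77.5, 80.2 and 90.03 CPM in SNU449. All its treated values were above their control, although 75.8% of its exonic bases overlap a gene on the opposite strand and the strand used in counting is not given in the sources used here. PSMC2 had ratios of 0.51 and 0.02 in Hep3B and 0.73 and 0.71 in Huh7, and PSMC5 had 0.01 and 0.43, then -0.11 and 0.06.

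Lid genes lay on both sides of control. PSMD6 and PSMD12, structural lid subunits, and PSMD14, the deubiquitinase that removes the ubiquitin chain, were below control in all 4 treated Hep3B and Huh7 libraries. PSMD6 had 71.2, 48.4 and 42.1 CPM in Hep3B at 0, 250 and 500 nM, 56.6, 46.6 and 30.2 CPM in Huh7, and 81.2, 77.5 and 85.4 CPM in SNU449. PSMD12 had 104, 81.2 and 67.3 CPM in Hep3B, 67.7, 53.0 and 35.9 CPM in Huh7, and 148, 150 and 159 CPM in SNU449. PSMD14 had 115, 90.8 and 87.5 CPM in Hep3B, 129, 102 and 56.1 CPM in Huh7, and 113, 110 and 125 CPM in SNU449. In each of these genes the 500 nM library was the lowest of its line in Hep3B and Huh7, and in SNU449 it was the highest.

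These decreases did not pass the test with all lines. The log2 fold change at 500 nM was -0.51 ± 0.25 for PSMD6 (edgeR adjusted p = 0.194), -0.47 ± 0.26 for PSMD12 (adjusted p = 0.240) and -0.45 ± 0.28 for PSMD14 (adjusted p = 0.288). With the 6 Hep3B and Huh7 libraries alone they were -0.83 ± 0.26 (adjusted p = 0.0162), -0.77 ± 0.26 (adjusted p = 0.0239) and -0.78 ± 0.28 (adjusted p = 0.0345). That fit called 13 members at 500 nM, 9 higher and 4 lower, where 22.7% of all genes were called higher and 18.9% lower, and the remaining lower gene was PSMD5. Of the other lid genes, PSMD7 had ratios of -0.03 in Hep3B and 0.97 in Huh7 at 500 nM, and PSMD8 had 0.96 and 0.19. PSMD3, PSMD11 and PSMD13 had 0.17, 0.15 and 0.61 in Hep3B and 0.43, 0.39 and -0.38 in Huh7. Taken over 8 lid genes, the median at 500 nM was 0.06 (Hep3B), -0.09 (Huh7) and 0.10 (SNU449).

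The chaperones that assemble the base, PSMD5, PSMD9 and PSMD10, are not part of the finished particle, and they diverged. PSMD5, at chr9:120815496-120842984, had 56.5, 40.1 and 31.9 CPM in Hep3B at 0, 250 and 500 nM, 82.4, 60.8 and 32.7 CPM in Huh7, and 67.0, 64.7 and 79.7 CPM in SNU449. It was the lowest-ranking member across lines at 500 nM, with -0.60 ± 0.29 (edgeR adjusted p = 0.187), and with -1.07 ± 0.27 (adjusted p = 0.00388) in Hep3B and Huh7 alone. PSMD10, known as gankyrin and as an oncoprotein of liver cancer, had 20.7, 45.6 and 25.6 CPM in Hep3B, 22.4, 58.9 and 49.7 CPM in Huh7, and 44.1, 44.1 and 46.4 CPM in SNU449. It rose in Huh7 by 1.28 ± 0.39 (adjusted p = 0.0379), with its highest value at 250 nM in both Hep3B and Huh7, and the call was also lost without the Huh7 library at 250 nM. PSMD9 had 4.12, 6.93 and 8.67 CPM in Hep3B, 5.36, 7.45 and 7.83 CPM in Huh7, and 6.83, 9.70 and 9.52 CPM in SNU449, from 29 to 172 counts, with 19.9% of its exonic bases shared with other genes on its strand. PSMD9 was the only member whose 6 treated CPM values all lay above its 3 controls, as did those of 1.47% of all tested genes, and its fold change at 500 nM was 0.70 ± 0.31 (adjusted p = 0.155).

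The responses of Hep3B and Huh7 resembled each other gene by gene. Across the 37 members the log2 ratios of the lines correlated with Pearson's r = 0.82 at 250 nM and 0.68 at 500 nM, beside 0.75 and 0.77 over all tested genes. This is a description across genes, which are not independent replicates, and the libraries of a line share its control. At 500 nM 9 members were at least 2-fold higher and 0 lower in Hep3B, where 18.6% of all genes were that much higher and 13.1% lower. In Huh7 6 were higher and 2 lower (PSMD5 and PSMD14), where the shares of all genes were 24% and 19.3%. In SNU449 there were 0 in either direction, where 0.956% and 1.08% of all genes were past the same fold. SNU449 ratios at 500 nM ran from -0.16 to 0.47, and 33 of 37 were above 0, beside 51% of all tested genes. At 250 nM 19 of 37 were above 0, beside 45.2% of all tested genes.

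**Figure D3:**
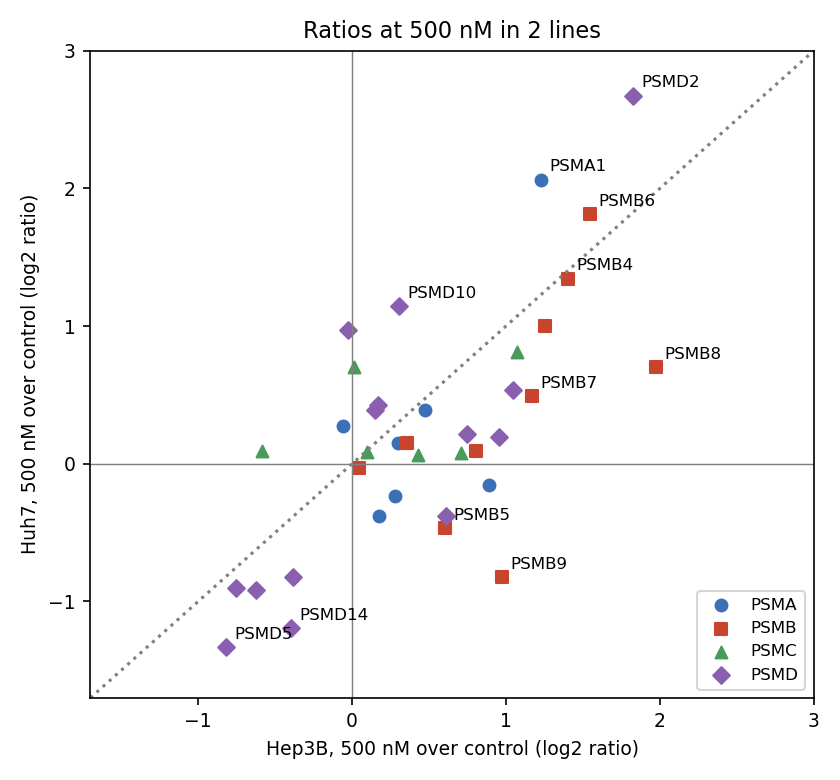
Log2 ratio of 500 nM over control in Hep3B (horizontal) and Huh7 (vertical) for the 37 tested members, with colour and shape by family and the dotted line marking equal ratios. PSMD2, PSMA1, PSMB6 and PSMB4 lie at the upper right, PSMD5 and PSMD14 at the lower left, and PSMB5 and PSMB9 are above 0 in Hep3B and below 0 in Huh7.

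Differences between the lines were tested for each member and none passed. The F test for equal responses called 0 of 37 members, against 1.14% of all genes, and DESeq2 called PSMD2 and PSMB6. An unadjusted p under 0.05 in the F test was reached by 5 members, which is 13.5%, beside 17% of all genes. By pair of lines edgeR called 0 members for Huh7 minus SNU449 (1.58% of all genes), 0 for Hep3B minus SNU449 (0.342%) and 0 for Huh7 minus Hep3B (0.00646%). The members at an unadjusted p under 0.05 were 5, 6 and 0. These are 13.5%, 16.2% and 0% of members, beside 18.2%, 16% and 6.64% of all genes. DESeq2 called 3, 2 and 0 in these pairs and limma-voom 2, 0 and 0. For DESeq2 and limma-voom the shares of all genes called are again not given, so their counts are not a result about the members. The smallest adjusted p belonged to PSMD2 (0.102). Its response in Huh7 minus that in SNU449 was 2.22 ± 0.56 (edgeR adjusted p = 0.0683), and in Hep3B minus SNU449 it was 1.85 ± 0.55 (adjusted p = 0.149). For PSMB6 the differences were 1.64 ± 0.45 (adjusted p = 0.0884) and 1.43 ± 0.45 (adjusted p = 0.165), and for PSMA1 they were 1.76 ± 0.49 (adjusted p = 0.0901) and 1.32 ± 0.48 (adjusted p = 0.216). A call in Hep3B or Huh7 and none in SNU449 is therefore not a tested difference between them.

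In control libraries the members ranked by TPM from PSMB4 (545) and PSMD2 (482) in Hep3B, and the lowest among the standard core genes was PSMA6 with 3.29, 2.47 and 2.38 TPM in Hep3B, Huh7 and SNU449. Within the alpha ring PSMA7 had 346, 416 and 609 TPM and PSMA1 had 26.5, 23.5 and 29.7 TPM, although each ring holds its subunits in equal number. Another gene on the same strand covers 14.1% of the exonic bases of PSMA6 and 24.7% of those of PSMA1. Reads in shared parts may go uncounted, so these low levels are uncertain. Lengths here are exonic bases of all annotated forms, and PSMB4 is the sixth in Hep3B when the longest transcript is used. Relative to the mean of untreated Hep3B and Huh7, untreated SNU449 was at least 2-fold higher in 3 members and lower in 0, where 19.8% and 19.3% of all genes differed by that much. Single pairs of lines could differ more: PSMA2 had 6.28 CPM in untreated SNU449 and 16.5 CPM in untreated Hep3B, PSMB1 had 92.0 and 195 CPM in the same pair, and PSMD12 had 148 CPM in untreated SNU449 and 67.7 CPM in untreated Huh7. The 3 were PSMB8 (3.41 on the log2 scale), PSMB9 (2.93) and PSMD10 (1.03).

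**Figure D4:**
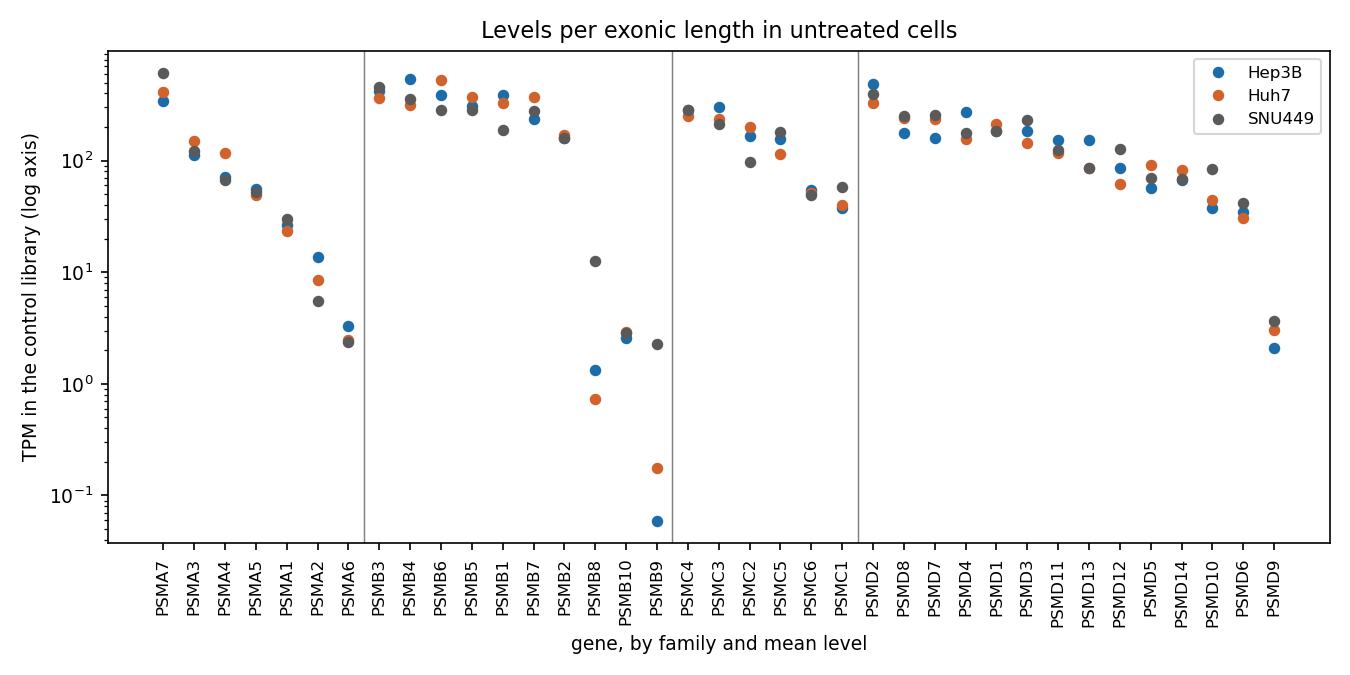
TPM in the control libraries of Hep3B (blue), Huh7 (orange) and SNU449 (grey) on a log axis for the 37 tested members, grouped by family and ordered by mean level. PSMB8 and PSMB9 show the widest spread between lines and are highest in SNU449, and PSMA6, PSMB10 and PSMD9 are low in all 3. Exons of PSMA6, PSMB10 and PSMD9 are partly shared with other genes on the same strand, so their levels are uncertain.

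The 250 bases before each RefSeq transcription start (GRCh38.p14) were searched on both strands for short motifs, with 33 members having at least 1 window and 40 windows in all. The antioxidant response element TGACNNNGC was found in 8 windows (20%), each of a different gene, beside 10.9% of all 35116 windows. The genes were PSMA4, PSMB3, PSMB9, PSMC5, PSMD3, PSMD5, PSMD9 and PSMD12. The CCAAT box was found in 42.5% of member windows and 32% of all windows, the ETS motif CCGGAAG in 17.5% and 8.52%, and the nuclear respiratory factor motif GCATGCGC in 5% and 2.63%. A CCGGAAG and a TGACNNNGC match stood in the same gene in PSMD9 and PSMD12. A match describes the letters and is not evidence of binding, and windows of a gene with several starts can overlap.

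Genes with TGACNNNGC lay on both sides of control. At 500 nM PSMB3 and PSMD9 had ratios of 1.25 and 1.05 in Hep3B and 1.0 and 0.53 in Huh7. PSMD5 and PSMD12 had -0.82 and -0.62 in Hep3B and -1.33 and -0.91 in Huh7. No window of PSMD2, PSMA1 or PSMB4, called higher in both lines, held any of these 4 motifs, and no window of PSMB6 was searched. Stretches of 4 genes outside annotated exons show this contrast, with the TGACNNNGC match in capitals where there is 1 and all bases from the gene's strand, 5′ to 3′.
PSMB3 (above control), chr17:38752611-38752671, plus strand: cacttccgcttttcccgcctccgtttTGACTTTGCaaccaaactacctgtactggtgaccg
PSMD9 (above control), chr12:121888662-121888722, plus strand: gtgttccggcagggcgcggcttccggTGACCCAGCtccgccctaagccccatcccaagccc
PSMD12 (below control), chr17:67366708-67366768, minus strand: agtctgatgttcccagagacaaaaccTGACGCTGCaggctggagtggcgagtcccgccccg
PSMB4 (above control, no match), chr1:151399434-151399533, plus strand: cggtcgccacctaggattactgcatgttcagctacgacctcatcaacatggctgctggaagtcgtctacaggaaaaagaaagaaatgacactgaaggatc
The match lies 104 to 96 bases before the start in PSMB3, 102 to 94 in PSMD9 and 165 to 157 in PSMD12. PSMD9 has another match, on the opposite strand, 149 to 141 bases before the start and outside the stretch shown.

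Members were also compared by gene span. The 12 members with the shortest span, 2.36 to 10.4 kb, had a median ratio at 500 nM of 0.92 in Hep3B and 0.76 in Huh7. The 12 in the middle, 11.5 to 21.4 kb, had 0.33 and 0.09, and the 13 longest, 25.1 to 139 kb, had 0.15 and 0.27, so in Huh7 the middle group lay below the longest. At 250 nM the shortest, middle and longest had 0.43, 0.20 and 0.35 in Hep3B and 0.51, 0.15 and 0.46 in Huh7, where the shortest and longest were close. The correlation of log10 span with the 500 nM ratio across the 37 members was r = -0.36 in Hep3B and -0.28 in Huh7, beside -0.38 and -0.47 over all tested genes, and 0.09 in SNU449. At 250 nM it was -0.23 in Hep3B and -0.13 in Huh7, beside -0.34 and -0.36 over all tested genes. By annotated span PSMA1 was an exception, with the longest span of all members and among the highest ratios. Spans run from the annotated start to the annotated end, and counts per gene do not show which transcript form was expressed.

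**Figure D5:**
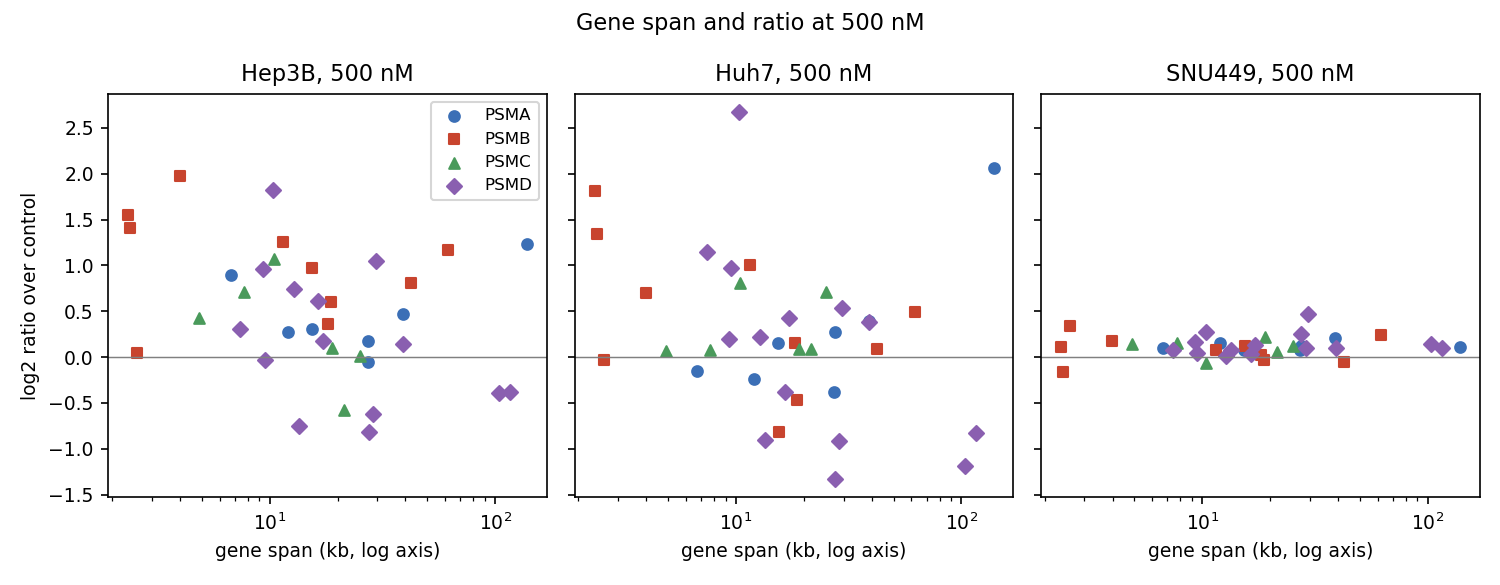
Gene span in kb (log axis) against the log2 ratio of 500 nM over control for the 37 tested members in Hep3B, Huh7 and SNU449, with colour and shape by family. Most of the highest ratios in Hep3B and Huh7 are at short spans, and the SNU449 points lie along 0. Exceptions by annotated span include PSMA1 at 139 kb in both lines, and PSMB7 at 62.0 kb and PSMD9 at 29.6 kb in Hep3B.

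Other parts of the regulatory particle were examined as a list of 19 genes, all tested. Within lines edgeR called 1 of 19 higher in Hep3B, beside 9.82% of all genes, and 1 higher and 1 lower in Huh7, beside 13.3% and 6.04%. ADRM1, a ubiquitin receptor, rose by 3.25 ± 0.53 in Hep3B (edgeR adjusted p = 0.00392) and 3.69 ± 0.54 in Huh7 (adjusted p = 0.00245). These values exceeded the fold change of every one of the 37 members in these lines, and ADRM1 had ratios of 0.14 and 0.19 in SNU449. UBE3C, a ubiquitin ligase bound to the proteasome, fell in Huh7 by 1.23 on the log2 scale (SE 0.35, adjusted p = 0.0288). PSME1, a subunit of the alternative cap, had 1.36 and 1.80 in Hep3B and Huh7 at 500 nM and was not called. Among 10 assembly chaperones and related factors, PSMG1, which starts the alpha ring, fell in Hep3B by 1.20 (SE 0.30, adjusted p = 0.0197) and in Huh7 by 1.41 (SE 0.32, adjusted p = 0.0122). UBLCP1, a proteasome phosphatase, fell in Hep3B by 1.40 (SE 0.30, adjusted p = 0.0122). PSMD10, described above, was the other chaperone called. Of the 10, 0 were called higher and 2 lower in Hep3B, beside 9.82% and 6.72% of all genes. In Huh7 1 was higher and 1 lower, beside 13.3% and 6.04%.

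Of 16 genes known to control the transcription of proteasome genes, 4 rose and 1 fell in Hep3B, and 3 rose and 1 fell in Huh7, beside 9.82% of all genes called higher and 6.72% lower in Hep3B, and 13.3% and 6.04% in Huh7. The small MAF proteins, which pair with NFE2L1 on the antioxidant response element, were those called higher in both lines: MAFG by 3.66 ± 0.55 in Hep3B (edgeR adjusted p = 0.00288) and 4.15 ± 0.56 in Huh7 (adjusted p = 0.00193), with MAFF at 3.77 ± 0.56 and 2.61 ± 0.52 and MAFK at 2.80 ± 0.55 and 3.59 ± 0.58. NFE2L3, a relative of NFE2L1, rose in Hep3B by 1.50 ± 0.41 (adjusted p = 0.0282). NFE2L1 itself was not called, with 0.11 ± 0.32 in Hep3B and -0.20 ± 0.32 in Huh7. Of the enzymes that release and activate NFE2L1, DDI2 fell in Hep3B by 1.68 (SE 0.35, adjusted p = 0.0100) and NGLY1 fell in Huh7 by 1.13 (SE 0.30, adjusted p = 0.0241).

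Of 14 genes that act with the immunoproteasome in antigen presentation 5 rose and none fell in Hep3B, and 6 rose and none fell in Huh7, beside 9.82% and 13.3% of all genes called higher. HLA-B, HLA-C and their light chain B2M rose in both, for instance HLA-B by 1.80 ± 0.35 in Hep3B (edgeR adjusted p = 0.00780) and 2.71 ± 0.60 in Huh7 (adjusted p = 0.0114). TAP1, a peptide transporter that neighbours PSMB9, rose in Hep3B by 1.49 ± 0.36 (adjusted p = 0.0178). HLA genes share sequence, so their counts are uncertain. Immune markers CD14 and LYZ were also called higher in Huh7, by 2.52 ± 0.59 and 1.97 ± 0.43, while CD3E was at 0 or near it. PTPRC was at 0 in both treated Huh7 libraries, with ratios of -2.49 and -2.49. CD14 had ratios of -0.21 and 0.57 in Hep3B at 250 and 500 nM. The 6 immune markers summed to 308 and 647 CPM in Hep3B and Huh7 at 500 nM, against 133 and 128 CPM in their controls. Their part in the result was not tested.

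Among ubiquitin genes and activating or conjugating enzymes, RPS27A, which encodes ubiquitin fused to a ribosomal protein, and the activating enzyme UBA1 rose and the conjugating enzyme UBE2D2 fell in Huh7. Of 13 tested genes for ubiquitin shuttling by VCP, FAF1 fell in Huh7 by 1.04 (SE 0.31, edgeR adjusted p = 0.0392) and none was called in Hep3B. The shares of all genes called were 13.3% higher and 6.04% lower in Huh7, and 9.82% and 6.72% in Hep3B. Of 9 COP9 signalosome genes, relatives of the proteasome lid, edgeR called none in any line. The same shares of all genes apply in Hep3B and Huh7, with 0% in SNU449.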

How the data were processed

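RNA sequencing of 3 liver cancer cell lines gave 9 libraries, 1 for each line and dose. The authors deposited raw counts per gene in a single table; HISAT2, HTSeq and GRCh38 are named in the submitters' processing notes, while versions, annotation release and strand use are not given in the sources used. All sample columns were used, and no pair of libraries was identical (0 pairs). A count table with whole genes cannot show changes in transcript form.

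edgeR 4.0.16 (R 4.3.3) was run on all 32990 rows, of which filterByExpr kept 15479, with TMM factors and two-sided quasi-likelihood tests, with Benjamini-Hochberg adjustment across tested genes and a threshold of 0.05. The dose fit had a term for the line and a term for each dose, and the line fit had a control and a treated term per line. Same-line libraries paired, since they come from the same cell line; their deviations from the dose means correlated at 0.797 to 0.961. The line term is therefore the replicate block of the dose fit. The fits were tested on simulated data with known changes.

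Single-library ratios used a prior count of 2. TPM used exonic lengths from GENCODE 29, in which 98.0% of rows were found. Intervals for ratios of low counts are 95% Clopper-Pearson and cover counting error only. DESeq2 1.42.0, limma 3.58.1 (voom), other scalings, filters and left-out libraries were alternatives, and those leaving out further treated libraries were chosen after seeing the data. Python 3.11.15, pandas 2.3.3, scipy 1.17.1 and matplotlib 3.10.9 were used.

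The members and gene lists were chosen with earlier results of these data known. Named with values in every library were the catalytic and inducible beta subunits, the 2 highest and 2 lowest members of each family at 500 nM, members past the threshold in the dose fit, the 3 with the smallest p between lines and the 3 that differed most between untreated lines. The other members named were chosen after their values were seen. The 12 pseudogene rows with proteasome symbols were left out. Some genes of the accompanying lists are not reported here.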

Additional observations from a re-analysis of the deposited data

Results flagged for a closer look

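The second PSMA2 row, an annotated readthrough outside all tests, had counts in treated Hep3B and Huh7 libraries and none in any control. It had 1 and 4 counts in Hep3B at 250 and 500 nM against 0 in the control, 2 and 1 counts in Huh7 against 0, and 0 in all SNU449 libraries. The highest value was the 4 counts in Hep3B at 500 nM, a low count in 1 of 9 libraries, and its difference from 0 was not tested. Other genes on the same strand cover 90.2% of its exonic bases.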

How the results depend on the processing

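Comparisons across lines depended on the alternative. At 500 nM against control edgeR called 0 members, against 1 under total counts, 3 with no filter, 3 by DESeq2 and 1 by limma-voom, and 0 to 13 when a line or library was left out. The 13 came without SNU449, 8 without its 500 nM library and 2 without Hep3B at 250 nM. At 250 nM the count was 1 with no filter and 0 to 7 with libraries left out, the 7 without SNU449. For both doses against control it was 1 under total counts and 3 with no filter, by DESeq2 and by limma-voom, and 0 to 12 with libraries left out. Without the line term (no replicate block) edgeR called 0 members in each of these comparisons. In Hep3B the 6 calls became 2 under total counts, 2 with dose as a slope (PSMB3 and PSMC4, neither among the 6), and 0 to 9 with libraries left out. In Huh7 the 5 calls ranged from 3 to 11 with libraries left out. With dose as a slope PSMD2, PSMB6 and PSMD10 were lost in Huh7, and PSMB3, PSMD5, PSMD12 and PSMD14 were gained. The count for Hep3B minus SNU449 was 1 with no filter, 2 by DESeq2 and 0 to 5 with libraries left out. For Huh7 minus SNU449 it was 1, 3 (2 by limma-voom) and 0 to 6, and for the F test 1, 2 and 0 to 5. For refits with libraries left out, the share of all genes called is given only for 500 nM without SNU449. It is not given for DESeq2, limma-voom, the fits with no filter or a slope, or total counts across lines. The cause was not tested.

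Total-count scaling turned the median member ratio to -0.11 and -0.16 in Hep3B and to -0.20 and -0.78 in Huh7 at 250 and 500 nM. It also turned the fold change at 500 nM of PSMA4 (-0.46), PSMA6 (-0.12), PSMB10 (-0.32), PSMB5 (-0.49), PSMC1 (-0.38), PSMC3 (-0.21) and PSMD10 (-0.0056). In Hep3B it turned PSMA3 (-0.40), PSMA4 (-0.34), PSMB5 (-0.095) and PSMC1 (-0.33), and in Huh7 PSMB7 (-0.070), PSMC1 (-0.51), PSMC4 (-0.17), PSMC6 (-0.39) and PSMD9 (-0.18). PSMA3 at 500 nM was 0.00057 with RLE factors, 0.024 with upper quartile factors and 0.0020 by DESeq2. With no filter PSMA4 was -0.054 and PSMB5 -0.086 at 500 nM, and PSMA3 was -0.00048 in Hep3B. PSMC3 in Huh7 was 0.025 with upper quartile factors, 0.015 with a mean CPM filter and 0.073 with a slope, and PSMB10 in Hep3B was 0.017 with a slope. With libraries left out, the 500 nM fold change ran from -0.19 to 0.12 for PSMA3 (0.093 without Huh7 at 500 nM), -0.090 to 0.22 for PSMA4 (-0.061 without Hep3B at 500 nM), -0.0085 to 0.22 for PSMB10, -0.30 to 0.29 for PSMB5 (-0.0080 without Hep3B at 250 nM), -0.21 to 0.69 for PSMB9 and -0.31 to 0.031 for PSMC6. PSMB10 in Hep3B ran from -0.30 to 0.042, and in Huh7 PSMC1 ran from -0.015 to 0.15 and PSMC6 from -0.0070 to 0.32. Other single-gene values kept their direction, 35 gaining and 32 losing a call. The shallowest library, Huh7 at 500 nM with 5701981 counts, limits low genes such as PSMB8, PSMB9 and PSMB10.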
